A study of Zea mays with 6 samples.

Results

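The cytosolic ribosomal protein genes of the maize ovary were described in ovaries with incompletely fused carpels (IFC) and in wild-type (WT) ovaries. A row of the expression table was taken when its description named a 40S, a 60S or an acidic ribosomal protein and did not name the chloroplast, the plastid or the mitochondrion. This gave 195 of the 25368 rows, of which 113 named a protein of the large (60S) subunit, 11 of them stalk proteins, and 82 a protein of the small (40S) subunit. Another 4 rows were left out by the organelle words. Every one of the 195 rows carried a gene ontology term for the ribosome, and 176 carried the ribosome pathway of KEGG.

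Both phenotypes came from the maize inbred Yu-A474, grown in the field without stress, and ovaries were freed of glumes, lemma and palea before pollination. IFC ovaries carried the *ifc* phenotype, a gap at the top of the ovary where the carpels had not closed, and are called a mutant in the labels, with 3 libraries. WT ovaries had fused carpels and also gave 3 libraries. The IFC and WT ovaries of a replicate were collected from the same ear, and the 3 replicates came from different ear rows. The *ifc* mutation is described as recessive with partial penetrance, so that the groups were told apart by ovary morphology and not by genotype. For each phenotype the reads of the 3 libraries were pooled before expression was calculated, so that each gene had a single value in IFC and a single value in WT, as FPKM, the number of mapped fragments scaled by transcript length and by the size of the library. These pooled values carry no replicate spread, and none of the differences below was tested.

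The cytosolic ribosome of plants is built from ribosomal RNA and a set of proteins, most of which are present as a single molecule in each ribosome. Each protein is usually encoded by several genes with nearly the same product, called paralogs here, and transcription of the set follows growth and cell division. In Arabidopsis, loss of single ribosomal protein genes gives pointed leaves and changes in leaf polarity, and one copy of the gene for L24 is known from its effect on the patterning of the gynoecium.

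The tissue label was checked against marker genes given by the symbols of their Arabidopsis matches. Not every symbol had a match: 7 of 9 were found for carpel and ovule, 4 of 8 for green tissue, 1 of 6 for pollen and anther, and 2 of 6 for embryo and endosperm. All 18 rows for carpel and ovule markers, among them matches of SEP3, SHP2, AG and CRC, were above 2 FPKM. They summed to 3306 FPKM in IFC and 3661 FPKM in WT. Of the 18, 17 were lower in IFC, as were 11417 of all 21093 rows over 2 FPKM. The 5 rows for green tissue summed to 102 FPKM in IFC and 110 FPKM in WT. The match of the anther gene AMS had 0.452 FPKM in IFC and 0.119 FPKM in WT, and 3 rows for seed regulators (ABI3, FUS3) summed to 23.0 FPKM in IFC and 30.5 FPKM in WT. The part of these marker differences in the values below was not tested. In bulk ovaries, fewer cells of a type and less RNA per cell cannot be told apart.

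Ribosomal protein genes were among the most highly expressed genes of the ovary. Of the 195, 192 exceeded 2 FPKM in IFC or WT, 98 had a mean of at least 100 FPKM, and 90 were among the 1000 rows with the highest mean. The median was 108 FPKM in IFC and 95.8 FPKM in WT. The 3 genes under 2 FPKM in both phenotypes were *GRMZM2G160517* (described as stalk protein P2A, 0.210 FPKM in IFC and 0.708 FPKM in WT), *GRMZM2G157300* (S21, 0.766 FPKM in IFC and 0.857 FPKM in WT) and *GRMZM2G311914* (L7/L12, 1.14 FPKM in IFC and 1.497 FPKM in WT). A name of the form L7/L12 belongs to the bacterial-type ribosome.

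The set was slightly and broadly higher in IFC. Of the 192 genes over 2 FPKM, 162 (84.4%) had a higher value in IFC and 30 a lower one, while 45.9% of all 21093 rows over the same minimum were higher in IFC. The median log2 ratio of IFC over WT was 0.17, a 1.13-fold difference, with quartiles of 0.06 and 0.28. The median over the rows outside the set was -0.03. The summed FPKM of the 195 genes was 26765 in IFC and 23587 in WT, a ratio of 1.13. The order of the genes by level was nearly the same in both phenotypes (Spearman's rho of 0.99 across the 192 genes, which are not independent replicates).

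**Figure D1:**
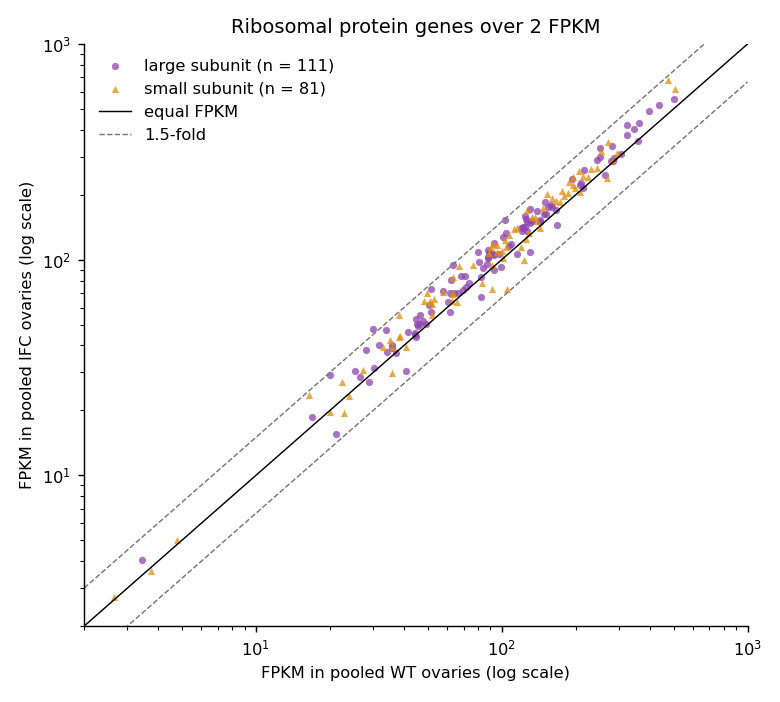
FPKM of each ribosomal protein gene in pooled IFC ovaries (vertical axis, log scale) against pooled WT ovaries (horizontal axis, log scale), with 111 large-subunit and 81 small-subunit genes over 2 FPKM. Most points lie just above the line of equal FPKM, and 1 gene lies outside the dashed lines of a 1.5-fold difference.

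The differences were small gene by gene. A single member, *GRMZM2G134107* for L22, passed 1.5-fold upwards and none passed it downwards, while 4.13% of all rows over the minimum were past 1.5-fold higher and 2.55% past 1.5-fold lower in IFC. Past a log2 ratio of 0.32, 32 members were higher in IFC (18 large, 14 small), where 10.9% of all rows were, and 3 were lower by as much (2 large, 1 small), where 10.5% of all rows were. The log2 ratios of the set ran between -0.53 and 0.68, and 64.1% of the members were within 1.2-fold, against 71.3% of the other rows.

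These directions are relative to the scaling of the deposited values. The row with the most FPKM, a second row of *GRMZM2G070931* outside the set, had 877143 FPKM in WT and was listed at 0 in IFC, and it made up 55.6% of the summed WT values. If IFC and WT were given equal totals, every log2 ratio would shift by 1.13, and by -0.05 with that row left out. After the shift of -0.05, 77.6% of the members were higher in IFC.

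The members were then compared with other genes of the same level. Among rows with a mean of 100 to 300 FPKM, 84 members had a median log2 ratio of 0.18 and 776 other rows a median of -0.01. Among rows of 300 FPKM or more, the medians were 0.25 for 14 members and -0.01 for 252 other rows. Between 30 and 100 FPKM they were 0.16 for 78 members and -0.02 for 3750 other rows. Within the set, the log2 ratio showed little relation to the mean level (rho of 0.10) or to the length of the locus (rho of -0.03), both across 192 genes that are not independent.

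**Figure D2:**
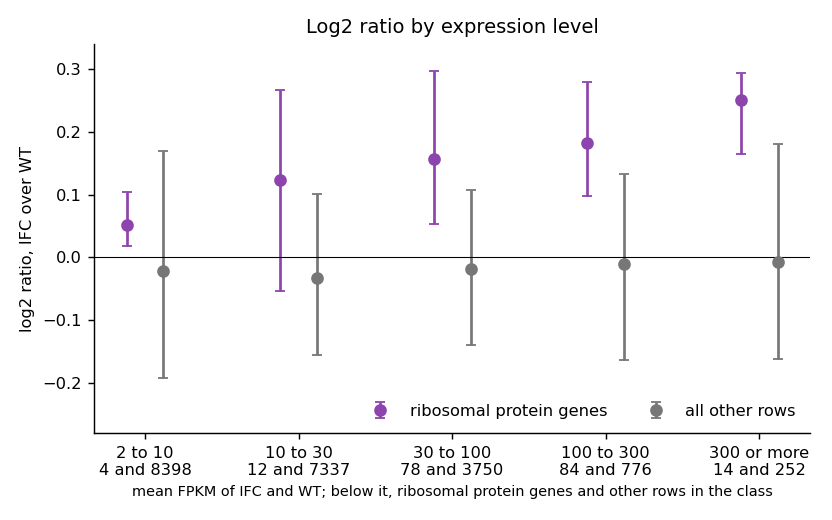
Median log2 ratio of FPKM, IFC over WT, for ribosomal protein genes and for all other rows in classes of mean FPKM, with bars for the quartiles over genes. The members' median is above that of the other rows in each of the 5 classes, and is 0.25 against -0.01 at 300 FPKM or more.

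Both subunits had a median above that of the other rows. The 111 large-subunit genes had a median log2 ratio of 0.17 and 97 of them were higher in IFC. The 81 small-subunit genes had a median of 0.19 and 65 were higher in IFC. The large subunit summed to 15545 FPKM in IFC and 13772 FPKM in WT, and the small subunit to 11219 FPKM in IFC and 9814 FPKM in WT. The large-subunit sum was therefore 1.39 times that of the small subunit in IFC and 1.40 times in WT. The difference of the subunit medians, large minus small, was -0.02, and -0.07 among members whose Arabidopsis locus was matched by at least 2 rows naming a ribosomal protein. It was not tested.

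**Figure D3:**
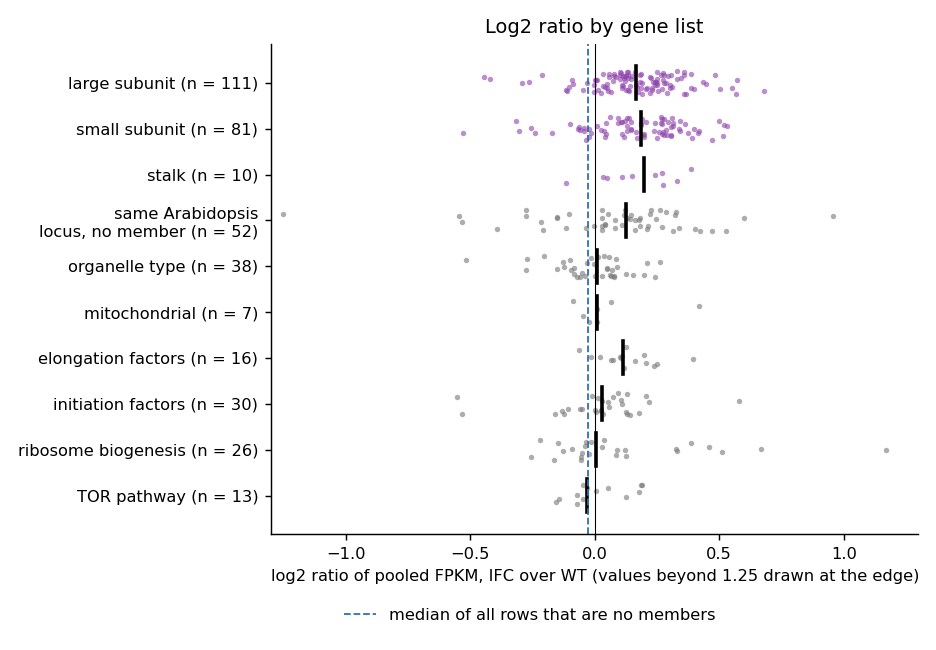
Log2 ratio of pooled FPKM, IFC over WT, for single genes over 2 FPKM (points) in each gene list, with the list's median (bar). The medians of the large subunit (0.17), the small subunit (0.19) and the stalk (0.20) lie to the right of the dashed line at -0.03, the median of the rows outside the set.

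The 6 most abundant large-subunit transcripts were all higher in IFC, by 1.104-fold to 1.31-fold. L5 carries the 5S ribosomal RNA into the large subunit, and its 2 genes had 554 FPKM in IFC and 502 FPKM in WT (*GRMZM5G815894*, chromosome 3: 168275427 to 168278435) and 405 FPKM in IFC and 346 FPKM in WT (*GRMZM2G163081*, chromosome 8: 163737202 to 163740608). *GRMZM2G394827*, for L28, had 521 FPKM in IFC and 437 FPKM in WT. *GRMZM2G171181*, for L23, had 488 FPKM in IFC and 398 FPKM in WT. L10, in yeast, joins the large subunit late in its assembly, and *GRMZM2G027451* for L10 had 429 FPKM in IFC and 361 FPKM in WT. *GRMZM2G063617*, the main gene for the RNA-binding protein L22, had 421 FPKM in IFC and 322 FPKM in WT, a log2 ratio of 0.38. The next gene in level, AC230013.2_FG007 for L18a, was not higher in IFC, with 357 FPKM in IFC and 358 FPKM in WT.

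Among the small-subunit genes, the 6 most abundant ones were also all higher in IFC. S26 lies where the mRNA leaves the small subunit, and *GRMZM5G827266* for S26 (chromosome 8: 118416385 to 118419018) was the most abundant of all members, with 682 FPKM in IFC and 476 FPKM in WT and a log2 ratio of 0.52. S9 and S3 lie where the mRNA enters. *GRMZM2G108348* for S9 had 619 FPKM in IFC and 505 FPKM in WT, and *GRMZM2G099352*, the only member for S3, had 314 FPKM in IFC and 293 FPKM in WT. Outside the set, *GRMZM2G074300* shares the Arabidopsis locus of *GRMZM2G099352* without a protein name. It was slightly lower in IFC, with 164 FPKM in IFC and 168 FPKM in WT. *GRMZM2G377797* for S16 had 350 FPKM in IFC and 270 FPKM in WT. The gene *GRMZM2G035017* for S4 had 321 FPKM in IFC and 253 FPKM in WT. The smallest difference of the 6 was that of *GRMZM2G171426* for S24, with 289 FPKM in IFC and 282 FPKM in WT.

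The stalk of the large subunit is a flexible arm that recruits elongation factors, made of P0 at its base and of the acidic proteins P1, P2 and, in plants, P3. Of its 10 genes over 2 FPKM, 9 were higher in IFC, with a median log2 ratio of 0.20. The only member described as P0, *GRMZM2G066460*, differed little, with 297 FPKM in IFC and 287 FPKM in WT. Outside the set, *GRMZM2G179976* shares its Arabidopsis locus without a protein name, and had 71.2 FPKM in IFC and 63.7 FPKM in WT. Both P1 genes were higher in IFC, *GRMZM2G032315* with 328 FPKM in IFC and 251 FPKM in WT, and *GRMZM2G157443* with 260 FPKM in IFC and 215 FPKM in WT. The locus of *GRMZM2G032315* overlaps another row on the opposite strand.

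P3 was led by *GRMZM2G077208*, with 338 FPKM in IFC and 280 FPKM in WT, while *GRMZM2G378770* had 28.7 FPKM in IFC and 26.6 FPKM in WT. The P2 family was the only stalk family with genes in both directions. Its P2A gene *GRMZM2G119809* had 111 FPKM in IFC and 88.2 FPKM in WT, and its P2B gene *GRMZM2G114954* had 106 FPKM in IFC and 115 FPKM in WT. The other P2A genes were lower expressed and higher in IFC, *GRMZM2G105712* with 55.2 FPKM in IFC and 46.7 FPKM in WT, *GRMZM2G010257* with 50.2 FPKM in IFC and 45.3 FPKM in WT, and *GRMZM2G075630* with 50.2 FPKM in IFC and 49.0 FPKM in WT.

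The 5 large-subunit genes with the greatest excess in IFC were for L22, L34 and L7. Of these, *GRMZM2G134107* for L22 (chromosome 9: 130759498 to 130760774) had 47.8 FPKM in IFC and 29.8 FPKM in WT, a log2 ratio of 0.68. Just inside 1.5-fold were *GRMZM2G152573* for L34, with 94.3 FPKM in IFC and 63.6 FPKM in WT, and *GRMZM2G100225* for L7, with 153 FPKM in IFC and 103 FPKM in WT. A second gene of each family followed, *GRMZM2G178807* for L7 with 29.3 FPKM in IFC and 19.96 FPKM in WT, and *GRMZM2G032564* for L34 with 73.2 FPKM in IFC and 51.6 FPKM in WT.

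In the small subunit, *GRMZM5G832108* for S9 had 55.3 FPKM in IFC and 38.2 FPKM in WT, a log2 ratio of 0.53. *GRMZM2G096690* for S30 had 23.6 FPKM in IFC and 16.5 FPKM in WT, and *GRMZM2G139349* for S25 had 70.3 FPKM in IFC and 49.7 FPKM in WT. Both of these loci overlap other rows of the table, that of S30 on both strands. *GRMZM2G051848* for S8 had 93.1 FPKM in IFC and 67.2 FPKM in WT, and the S26 gene with the highest level of the set was also among the 5 with the greatest excess.

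The 5 large-subunit genes with the greatest deficit in IFC were for L39, L38, L2, L13 and L12. *GRMZM2G156027* for L39, a small protein at the exit tunnel of the growing peptide, had 15.6 FPKM in IFC and 21.2 FPKM in WT, a log2 ratio of -0.44. *GRMZM2G069594* for L38 had 30.4 FPKM in IFC and 40.6 FPKM in WT. *GRMZM2G067456*, which leads the family of L2, a protein close to the peptidyl transferase centre, had 67.4 FPKM in IFC and 82.6 FPKM in WT. *GRMZM2G409407* for L13 had 108 FPKM in IFC and 130 FPKM in WT, and a row with the IDs AC196489.3_FG002 and *GRMZM2G556667*, for L12 at the base of the stalk, had 145 FPKM in IFC and 168 FPKM in WT.

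In the small subunit the greatest deficit was that of *GRMZM2G455828* for S28 (chromosome 1: 46692043 to 46694044), with 72.96 FPKM in IFC and 105 FPKM in WT and a log2 ratio of -0.53. *GRMZM2G377600* for the zinc-binding protein S27 had 73.1 FPKM in IFC and 90.9 FPKM in WT. *GRMZM5G899149* for S26 had 100.03 FPKM in IFC and 123 FPKM in WT. *GRMZM2G124143*, a further S28 gene, had 29.8 FPKM in IFC and 35.7 FPKM in WT, and *GRMZM2G140609* for S23, a protein of the decoding centre, had 19.4 FPKM in IFC and 22.8 FPKM in WT. None of these 10 genes was past 1.5-fold.

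The paralogs were then summed to 1 value per protein. The 192 genes formed 70 families, 40 of the large and 30 of the small subunit, and 61 of them had 2 or more genes over the minimum, with at most 6. The summed FPKM was higher in IFC for 67 families and lower for 3, and the family log2 ratio ran between -0.15 and 0.43 with a median of 0.16. The median was 0.15 for large-subunit families and 0.17 for small-subunit families.

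The families with the greatest excess were L34, with 219 FPKM in IFC and 163 FPKM in WT, and L22, with 506 FPKM in IFC and 380 FPKM in WT. They were followed by S30, whose protein is known in animals as the product of a fusion with a ubiquitin-like protein, with 224 FPKM in IFC and 171 FPKM in WT. The 3 families lower in IFC were L2, with 106 FPKM in IFC and 118 FPKM in WT, S28, with 221 FPKM in IFC and 233 FPKM in WT, and S4-like, a single gene with 19.7 FPKM in IFC and 19.99 FPKM in WT. L2 gains a further copy if a row that shares its Arabidopsis locus but has no protein name, *GRMZM2G077851*, is counted. That row had 93.1 FPKM in IFC and 74.3 FPKM in WT, and L2 was then no longer among the families lower in IFC. With all rows that share a member's locus counted, 3 families were still lower, S28, S4-like and L18A, the last with 126 FPKM in IFC and 132 FPKM in WT.

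**Figure D4:**
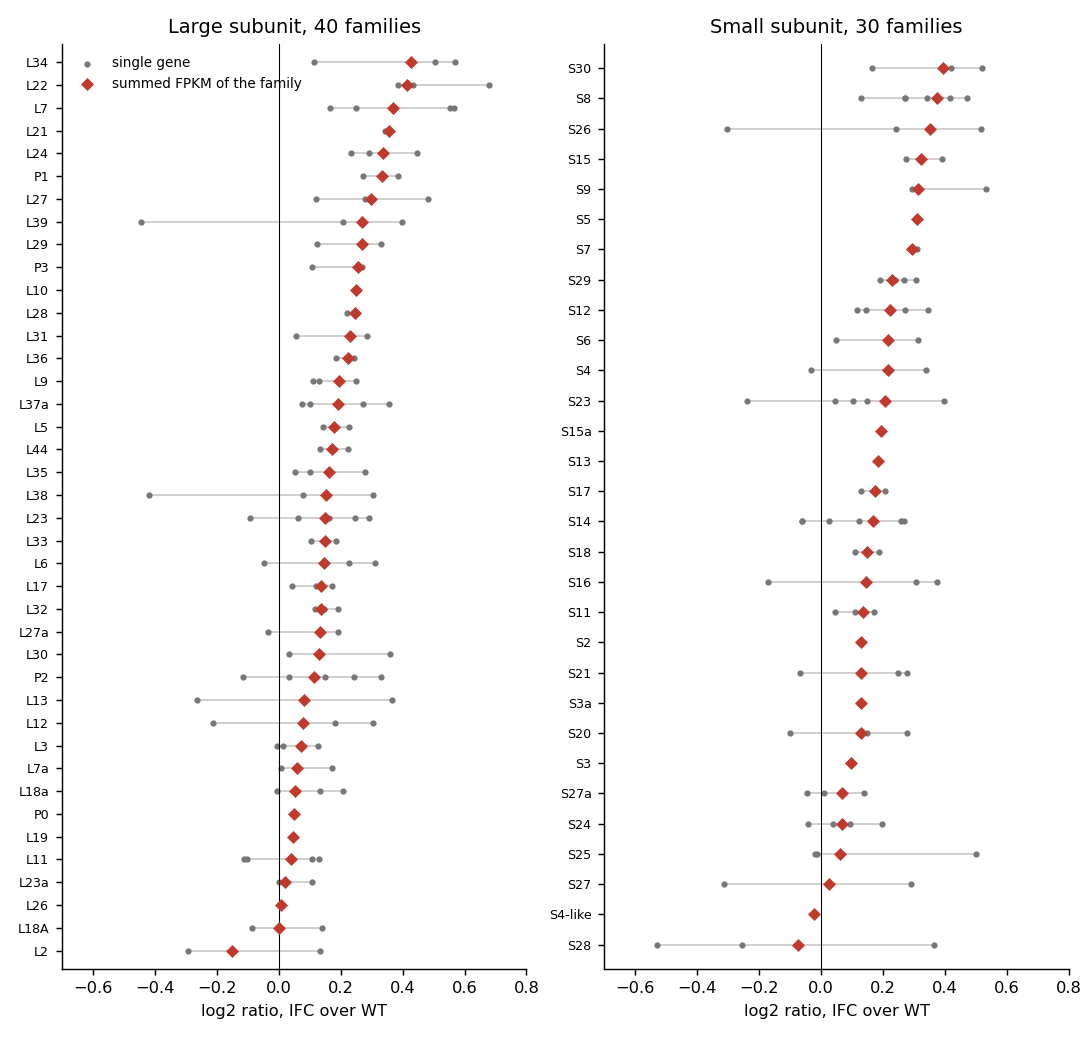
Log2 ratio of FPKM, IFC over WT, for each gene over 2 FPKM (grey) and for the summed FPKM of its family (red diamond), in 40 large-subunit and 30 small-subunit families ordered by the family value. The diamonds of 67 families lie right of 0, and the widest spreads are those of S28, L39 and S26.

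In 36 of the 61 families with several genes, the copies differed from each other in log2 ratio by more than the family differed between phenotypes. All copies were higher in IFC in 36 of the 61 families, 25 had copies in both directions, and 0 had all copies lower. The distance between the highest and the lowest log2 ratio of a family had a median of 0.23 and exceeded 0.5 in 10 families. The most abundant copy of each family, by its mean over both phenotypes, was higher in IFC in 55 of 61 families with a median log2 ratio of 0.25, and the other 122 copies were higher in 99 cases with a median of 0.15.

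Of 21 families with exactly 2 genes, 16 had both genes higher in IFC and 5 had 1 gene in each direction, in a set of which 84.4% was higher in IFC. The median distance between the log2 ratios of a pair was 0.11, and 10 pairs were within 0.1 of each other. Over all members the quartiles lay 0.22 apart. Whether the copies of a pair were more alike than unrelated members was not tested. The closest pair was L10, where *GRMZM2G027451* is given above and *GRMZM2G087233* had 150 FPKM in IFC and 126 FPKM in WT, so that both had a log2 ratio of 0.25. The S15a pair lay 0.0019 apart on the log2 scale, with 223 FPKM in IFC and 195 FPKM in WT for *GRMZM2G018228*, and 44.3 FPKM in IFC and 38.7 FPKM in WT for *GRMZM2G083497*. Reads that match several paralogs are divided among them by the expression program, so that the split of nearly identical copies is uncertain and close ratios in a pair can come from shared reads, which was not tested. These pairs were chosen after their values were seen.

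The widest spread was found in S28, whose protein lies near S26 on the small subunit. *GRMZM2G030293* (chromosome 9: 137120620 to 137122323) had 118 FPKM in IFC and 91.9 FPKM in WT, opposite to *GRMZM2G455828*, described above. The share of *GRMZM2G030293* in the family was 53.5% in IFC and 39.5% in WT, the greatest move of any copy at 14.0 points, and that of *GRMZM2G455828* was 33.0% in IFC and 45.2% in WT. Both copies match the same Arabidopsis locus, AT5G03850.

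Next came L39 and S26. In L39, the main copies *GRMZM2G100467* (172 FPKM in IFC and 130 FPKM in WT) and *GRMZM2G411764* (107 FPKM in IFC and 92.3 FPKM in WT) were higher in IFC and the minor copy was lower. In S26, the leading copy held 68.9% of the family in IFC and 61.4% in WT, *GRMZM2G129015* had 208 FPKM in IFC and 176 FPKM in WT, and *GRMZM5G899149* held 10.1% in IFC and 15.9% in WT.

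L38, L13 and S27 completed the 6 families with the widest spread among those with fewer than 5 genes. S23, with 5 genes, spread wider than L13 and S27, with log2 ratios between -0.24 and 0.40. In L38, AC190609.3_FG002 had 186 FPKM in IFC and 150 FPKM in WT and *GRMZM2G046011* had 70.2 FPKM in IFC and 66.5 FPKM in WT, and the locus of AC190609.3_FG002 overlaps another row on the opposite strand. In L13, *GRMZM2G081102* had 160 FPKM in IFC and 124 FPKM in WT and *GRMZM2G145280* had 152 FPKM in IFC and 143 FPKM in WT. In S27, *GRMZM2G132121* had 117 FPKM in IFC and 95.8 FPKM in WT, and its share was 61.5% in IFC and 51.3% in WT.

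The most abundant copy differed between the phenotypes in 8 of the 61 families, L12, L13, L35, L6, P2, S18, S21 and S28. In none of the 8 were the 2 leading copies at least 1.2-fold apart in both phenotypes. S18, a pair, had its copies almost level in each phenotype, with 245 FPKM for *GRMZM2G178341* and 243 FPKM for *GRMZM2G130544* in IFC, and 215 FPKM and 225 FPKM for the same genes in WT. In the other 53 families the leading copy was the same gene, and its share had a median of 56.4% in IFC and 54.8% in WT over all 61 families.

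**Figure D5:**
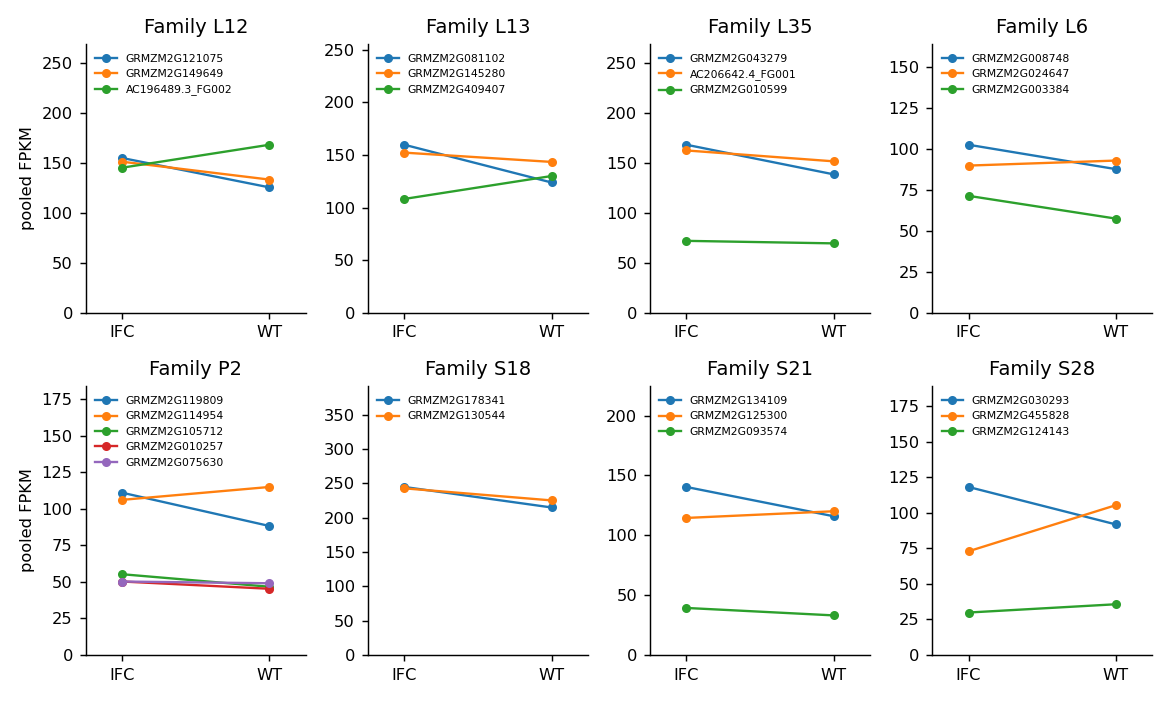
Pooled FPKM of each paralog in IFC (left) and WT (right) for the 8 families whose most abundant copy differed, one panel per family with axes starting at 0. The lines of the leading copies cross, most widely in S28, where the copies had 118 and 72.96 FPKM in IFC and 91.9 and 105 FPKM in WT.

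Some families are neighbours in the genome. Within 500 kb of the next copy on B73 RefGen_v3, 5 families had such groups, and the greatest was a run of 5 S8 genes on chromosome 4 (232843892 to 233322937), which summed to 291 FPKM in IFC and 224 FPKM in WT. All 5 were higher in IFC, with log2 ratios between 0.27 and 0.47. A group of 3 S14 genes on chromosome 6 (90208968 to 90475658) ran between -0.06 and 0.27, and a pair of P2A genes on chromosome 8 (72904842 to 73206734) had 0.24 and 0.33. Members were found on all 10 chromosomes, and the median log2 ratio per chromosome lay between 0.13 (chromosome 6, 25 genes) and 0.26 (chromosome 9, 15 genes).

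A few members with known roles in Arabidopsis development or signalling were read after their values were seen. L24 had a log2 ratio of 0.34 as a family, with 237 FPKM in IFC and 194 FPKM in WT for *GRMZM2G142640* and 109 FPKM in IFC and 79.8 FPKM in WT for *GRMZM2G074898*. Both match RPL24A in Arabidopsis and not the copy known from the gynoecium. *GRMZM2G158034*, whose match in Arabidopsis is known from a pointed first leaf (PFL2, S13), had 109 FPKM in IFC and 95.9 FPKM in WT. Outside the set, further rows without a protein name matched the same locus at higher levels. These were *GRMZM5G852185*, with 180 FPKM in IFC and 145 FPKM in WT, and *GRMZM2G112050*, with 124 FPKM in IFC and 107 FPKM in WT. *GRMZM2G078985*, the match of RPS5A (S5), a gene of dividing cells in Arabidopsis, had 242 FPKM in IFC and 195 FPKM in WT. S6 is phosphorylated by S6 kinase downstream of the growth regulator TOR, and its genes had 257 FPKM in IFC and 207 FPKM in WT (*GRMZM5G851698*) and 133 FPKM in IFC and 129 FPKM in WT (*GRMZM2G054136*).

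For some members the Arabidopsis match did not settle the name in the description, and their identity is uncertain. Only the first of those below matched a locus with a symbol, and the other loci carried none. *GRMZM2G170336*, described as S20, matched the sugar epimerase gene GAE2 and had 39.4 FPKM in IFC and 35.6 FPKM in WT. *GRMZM2G167103*, described as L9, matched AT3G30340, which 3 rows without a ribosomal name also matched, and had 107 FPKM in IFC and 97.2 FPKM in WT. The S4-like gene *GRMZM2G053767* matched AT5G15750 and is given above. The pair described as L18A matched AT1G17080, which no gene named L18a matched, and *GRMZM2G021877* had 27.1 FPKM in IFC and 28.8 FPKM in WT and *GRMZM2G100349* had 18.6 FPKM in IFC and 16.9 FPKM in WT.

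Rows outside the set that share an Arabidopsis locus with a member, most of them without a protein name, leaned the same way. Of 58 such rows, 52 were over 2 FPKM, and 38 of these were higher in IFC with a median log2 ratio of 0.13. The ribosomal proteins of organelles had medians near 0. Of 38 rows over the minimum with a plastid or bacterial-type (30S or 50S) name, 20 were higher in IFC with a median of 0.01, and of 7 with a mitochondrial name, 4 were higher with a median of 0.01.

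Other parts of the translation machinery were read for comparison. Translation elongation factors, of which 16 rows were over the minimum, were higher in IFC in 14 rows with a median of 0.11. One of the 16 is described as a transcription elongation factor and was caught by the wording of the list. *GRMZM2G153541*, an elongation factor 1-alpha gene, had 845 FPKM in IFC and 710 FPKM in WT. The same gene served as the internal reference of the qRT-PCR in the study. Of 30 initiation factor rows, 21 were higher in IFC with a median of 0.03.

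Ribosome biogenesis genes and the TOR pathway, which act upstream of ribosome supply, had medians near those of all rows. The biogenesis list was drawn by wording in the descriptions and is mixed. It also caught *GRMZM2G165694*, described as a 16S rRNA processing protein of the RimM family, and *GRMZM2G047474*, described as a nucleolar protein with a TLD domain. Of 26 biogenesis rows over the minimum, 13 were higher in IFC and the median was 0.01, with 2 past 1.5-fold. These were *GRMZM2G131943*, which matches the nucleolin gene NUC-L2, with 46.0 FPKM in IFC and 29.0 FPKM in WT, and *GRMZM5G834894*, described as related to a nucleolar essential protein, with 19.2 FPKM in IFC and 8.55 FPKM in WT. Of 13 TOR pathway rows, 6 were higher in IFC with a median of -0.03. The number of genes per list and the pooling of replicates limit these to descriptions, and the differences between lists were not tested.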

How the data were processed

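RNA from ovaries of 3 IFC and 3 WT samples was sequenced after removal of ribosomal RNA. According to the methods of the study, reads were trimmed, mapped to B73 RefGen_v3 with TopHat2, restricted to exons with BEDTools and quantified with Cufflinks and Cuffdiff, with its options for reads that map to several places, for fragment bias and for normalization by quartile. The authors pooled the exonic reads of the 3 samples of a phenotype and deposited 1 FPKM value per gene and phenotype. The table holds no counts, so the number of reads behind a gene's value is unknown and no interval was computed. The study lists more mapped reads for each WT library than for the IFC library of the same replicate. Its columns of the authors' own fold changes, log2 fold changes, p-values and q-values were not used.

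Ratios of IFC over WT were computed from the deposited FPKM values without a pseudocount, for rows above 2 FPKM in IFC or WT, with Python 3.11.15, pandas 2.3.3, numpy 2.4.6, scipy 1.17.1 and matplotlib 3.10.9. A 1.5-fold ratio was used to count larger differences. With 1 pooled value per phenotype in the deposited table no test was run. Values of single libraries in the supplement of the study were not used here. Genes were grouped into families by protein name, dropping a copy number or the A and B of the stalk proteins. The letter a was kept, against the plan, since S15 and S15a are different proteins. Rows of the same gene were summed in families. The computation was tested on simulated data. Named genes were, within each subunit, the 6 highest means and the 5 greatest ratios in each direction. Also named were all stalk proteins and members past 1.5-fold. Leading paralogs were named for the 6 families with the widest spread among those with fewer than 5 genes. Members whose match did not settle their description were named as well. Other named genes were chosen after their values were seen. Members, lists and rules were chosen with earlier results of these data known. RefSeq names matched 172 of 195 members, and no RefSeq coordinate was used. Planned searches for promoter motifs were not run, since no promoter sequences were used here. Genes of RNA polymerase I were searched for by description and 0 rows matched.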

Additional observations from a re-analysis of the deposited data

How the results depend on the processing

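No paired analysis was possible because the deposited table, the source of every value here, pools the 3 replicates of each phenotype, and for the same reason no replicate could be left out. Of 78 combinations of 8 summary results with another setting, 66 stayed close to the reported value and 12 moved. No median, share or ratio changed direction, and counts have no direction to change. Close means within 0.1 on the log2 scale, within the exact 95% binomial interval of the reported share (78.5% to 89.2%, over genes that are not independent), or within 1.5 times a count. Some of these outcomes were fixed in advance. Scaling all genes alike cannot change the difference between the subunit medians, and only 1 member had more than 1 row. The tolerance of 0.1 is also wider than that difference (-0.02), so that close says little about it.

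Scaling to the same total FPKM over all rows, which is set by 1 row that is listed at 0 in IFC, raised the median log2 ratio to 1.297 for all members, 1.29 for the large and 1.31 for the small subunit, the summed ratio to 2.48, the share higher in IFC to 100% and the members past the fold to 192. Without that row the share was 77.6%. Members past the fold numbered 3 with the median of all rows set to 0, 2 without the filter on low values, 35 past a log2 ratio of 0.32 and 0 past 2-fold. Leading paralogs at least 1.2-fold apart in both phenotypes, a setting chosen after seeing the data, left 0 of the 8 families. Also chosen after seeing the data were leaving out the 16 members whose locus overlaps another row (median log2 ratio 0.17, 83.6% of 177 higher in IFC), dropping the letter a from family names (8 families) and adding rows that share a locus (9 of 68 families). Adding these rows put L2 among the families whose leading copy differed. No value has a replicate error, so that differences of the size seen here were not set against variation between ovaries.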
